A study of Gallus gallus with 33 samples.

Results

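The homeobox genes outside the HOX clusters that were printed on a custom transcription factor microarray were examined in chick utricle sensory epithelia after laser wounding. The members were taken by identifier, as those of the PAX, LHX, LMX, DLX, NKX, IRX, MSX, OTX, PITX, MEIS, PBX, EMX, GBX, BARX, CDX, TLX, POU and SIX-type families plus ARIX, leaving out POU4F2, POU5F1 and mismatch versions of a probe. The rule matched 63 of the 1516 identifiers analysed, and each of the 63 had 2 spots on an array. No identifier of the array matched the TLX prefix.

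The lesioned samples were isolated sensory epithelia of the utricle, from White Leghorn chicks in the early weeks after hatching, grown in culture, cut with a pulsed laser microbeam and harvested at 4 recovery times between 30 min and 3 hr. The controls were unlesioned cultures kept under the same conditions and harvested at the same times, so epithelial isolation, serum-containing culture and RNA amplification were shared by both groups. Amplified RNA of both kinds of culture carried the dyes Cy3 and Cy5, in either orientation, and was hybridized together on 5 arrays (2 biological samples) at 30 min, 6 arrays (2 samples) at 1 hr, 8 arrays (2 samples) at 2 hr and 14 arrays (3 samples) at 3 hr. By the methods a biological sample combined 4 lesioned specimens and its control 4 unlesioned ones, and the p-values measure the spread between such samples. In the main fit each probe had 1 such spread, shared by all 4 time points. The SE of a time point can therefore exceed the difference between its own samples. How many animals they came from is not given in the sources used here. A wound touches a line of cells in each culture and the RNA came from the whole culture, and in such bulk RNA fewer cells of a type and less RNA per cell cannot be told apart. The probes were 50-base oligonucleotides designed on human genes, so a dim spot may be a gene that is little expressed or a probe that pairs poorly with the chick transcript, and these cannot be told apart. Of the 63 identifiers, 52 equalled a current chicken gene symbol. The 11 that did not were ARIX, IRX7, MEIS3, NKX2B, NKX2C, NKX3A, NKX6A, PAX8, PBX2, POU2F2 and SIX4. Some of these are older names, and whether the chick has each of these genes was not examined. This holds for PAX8 and SIX4, which are described below as inner ear genes.

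Homeobox genes encode transcription factors that bind DNA through the homeodomain, and outside the HOX clusters they are grouped into families by further domains. PAX proteins carry a paired domain, POU proteins a POU-specific domain, LIM-homeobox proteins (LHX and LMX) a pair of LIM domains, and PBX and MEIS proteins, of the TALE class, bind DNA together with other homeodomain proteins. In the inner ear, PAX2 and PAX8 mark the otic placode, DLX5, DLX6, GBX2 and LMX1 genes pattern the dorsal otocyst, OTX genes the ventral otocyst, and EMX2 sets the orientation of hair cells. POU4F3 is a hair cell factor, POU4F1 a factor of sensory ganglion neurons and POU3F4 a factor of the mesenchyme around the otic epithelium. A few identifiers that the prefixes matched lie at the edge of the class. POU2AF1 is a coactivator of POU proteins without a homeodomain, and some PAX proteins, PAX1, PAX5 and PAX9 among them, lack all or part of it.

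Brightness and agreement of the hybridizations limited every value below. The median probe signal ran from 189 to 2429 in Cy3 and from 88.5 to 1440 in Cy5 over the 33 arrays. Ratios are log2 of laser over control after background correction and loess normalization, averaged over both dye orientations within a biological sample, so 0 means equal signal. In 4 samples the orientations, each turned to laser over control, correlated below -0.3 across the 371 probes that passed the signal filter, with r of -0.64 (1 hr replicate 2), -0.36 (2 hr replicate 2), -0.78 (3 hr replicate 2) and -0.80 (3 hr replicate 3). The r of 30 min replicate 2 was -0.04, and those of the other 4 samples were positive. The dye assignment comes from the image names in the file headers and matches the sample titles on all 33 arrays. In these 4 samples, however, the direction of the ratios is not settled by the data. For ratios named by the rules stated below, values with these samples turned are given where the sign changed. Other means that use these samples, such as those of ARIX, PBX4 and NKX2B, are given without turned values. On 2 arrays, 1 of 2 hr replicate 2 and the Cy3 array of 3 hr replicate 2, the image in each channel's file was, by its header, that of the opposite dye from the one in its name, and the headers were followed. In 3 hr replicate 1 the ratios of all filtered probes had an SD of 1.03, against 0.16 to 0.40 in the other 8 samples. On 5 of the 33 arrays fewer identifiers were printed, and these are called the earlier print. They were arrays of 3 hr replicate 1, in both orientations, apart from a Cy3 array of 2 hr replicate 1.

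Most of the homeobox probes were dim. A probe was tested where 50% or more of the 33 arrays gave a signal over 1000 in Cy3 or Cy5, and 22 of the 63 members passed (34.9%), beside 24.5% of all 1516 probes. All 4 NKX identifiers and 4 of the 5 SIX-type genes passed, whereas 2 of 9 PAX, 3 of 9 POU and 1 of 6 DLX did, and 0 of 6 LHX, 0 of 3 IRX and 0 of 3 MEIS. DLX3 was above the level on 29 of 33 arrays and SIX4 on 27, followed by CDX1 on 25, POU6F1 on 23 and POU4F1 on 22. CDX4, DLX1, DLX5 and OTX2 were above it on 8 arrays each. The filter divided members of nearly equal signal, since CDX2, NKX2B, NKX3A, PAX5, POU2AF1, SIX2 and SIX6 passed on 17 arrays while EMX1, GBX1, PAX1 and PAX3 missed on 16.

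**Figure D1:**
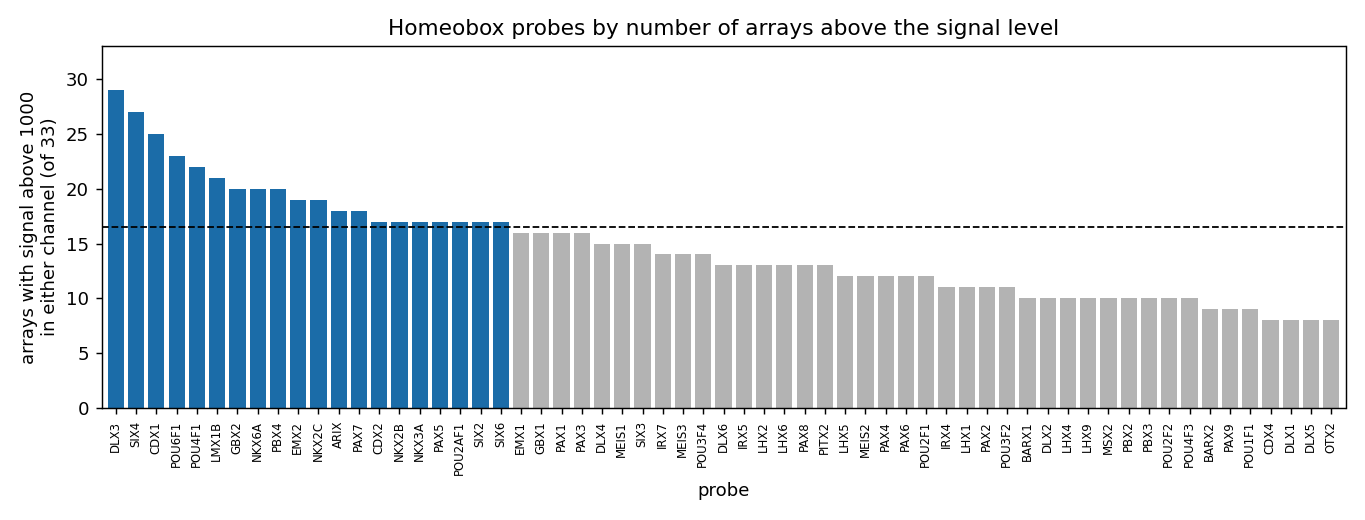
Number of arrays, of 33, on which each of 61 of the homeobox probes had a signal above 1000 in either channel. Blue bars are the 20 of these probes that passed the filter (17 to 29 arrays, above the dashed line), grey bars the 41 that did not (8 to 16 arrays).

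Of the 25 homeobox genes of these families chosen for their known place in the inner ear, 20 were on the array and 8 passed the filter. SIX4, DLX3, GBX2, EMX2, LMX1B and POU4F1 are described below. The 12 below the filter, PAX2, PAX3, PAX8, DLX5, DLX6, OTX2, MSX2, IRX4, MEIS1, MEIS2, POU3F4 and POU4F3, were not tested with them. PAX2 exceeded the level on 11 arrays, PAX8 on 13, POU3F4 on 14 and POU4F3 on 10, so these placode, mesenchyme and hair cell factors were left out of the main fit. In both channels at once PAX2 exceeded it on 3 arrays, PAX8 on 4, POU3F4 on 10 and POU4F3 on 5. PAX7, which passed the filter, did so on 4.

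A stricter rule for a detectable gene asked that Cy3 and Cy5 signals both exceed 1000, on 80% or more of a time point's arrays. At 30 min 3 members met it (4.76%, beside 4.09% of all probes), DLX3, POU6F1 and SIX4, each on 4 of 5 arrays. At 1 hr (0.33% of probes), 2 hr (0.264%) and 3 hr (0.594%) 0 members met it. At these later times DLX3 was above the level in both channels on 0 of 6, 5 of 8 and 10 of 14 arrays and CDX1 on 2 of 6, 4 of 8 and 11 of 14. Without replicate 2 the 30 min count was 0. This was fixed by 1 of the 3 arrays left, on which 0 members exceeded the level in both channels. Without replicate 1 the count was 8, so it moved with the arrays kept. Whether it rested on 1 replicate cannot be told. The 30 min count was 9 where a signal in either channel sufficed (11.5% of all probes).

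The comparison of lesioned with time-matched control epithelia asked which of these genes responded within 3 hr of wounding. No homeobox member passed an adjusted p of 0.05 in limma at any of the 4 time points, in their mean or in the F test between time points, and 0% of the 371 probes did in any of these. At an unadjusted p under 0.05 there was 1 member at 1 hr (1.08% of probes) and 1 in the mean over time points (3.23%), PAX7 in both. At 30 min (0.809% of probes), 2 hr (1.62%), 3 hr (1.89%) and in the F test (0.27%) there were 0. The methods' t-test over samples gave 0 members at 30 min, 2 at 1 hr (EMX2 and PBX4), 1 at 2 hr (NKX3A) and 0 at 3 hr before adjustment (1.89%, 4.58%, 6.2% and 2.7% of probes), and 0 after Benjamini-Hochberg adjustment. With a median standard error on the log2 scale of 0.17 at 3 hr and 0.21 at the earlier times, changes of the size of the study's 1.2-fold limit (0.26) could not be told from 0 for a typical member.

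Mean ratios past 1.2-fold were few in either direction. At 30 min 4 members lay above it (6.2% of probes) and 1 below (16.2%). At 1 hr 2 were above (9.16%) and 3 below (8.89%), and at 2 hr 1 was above (9.16%) and 1 below (8.63%). At 3 hr 1 was above (1.89%) and 5 below (32.9%), and without 3 hr replicate 1 these counts were 1 and 0. The median ratio of the 22 members was 0.02 (30 min), -0.04 (1 hr), 0.03 (2 hr) and 0.02 (3 hr), beside -0.04, 0.002, -0.004 and -0.06 for all 371 probes. Every biological sample of the time point had the same sign in 4 members above 0 and 3 below at 30 min (14.8% and 16.7% of probes), 8 and 7 at 1 hr (27.2% and 24.3%), 8 and 4 at 2 hr (31.5% and 34%), and 3 and 1 at 3 hr (10.8% and 9.7%). With either sign counted, 7 members did so at 30 min (31.5% of probes), 15 at 1 hr (51.5%), 12 at 2 hr (65.5%) and 4 at 3 hr (20.5%).

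**Figure D2:**
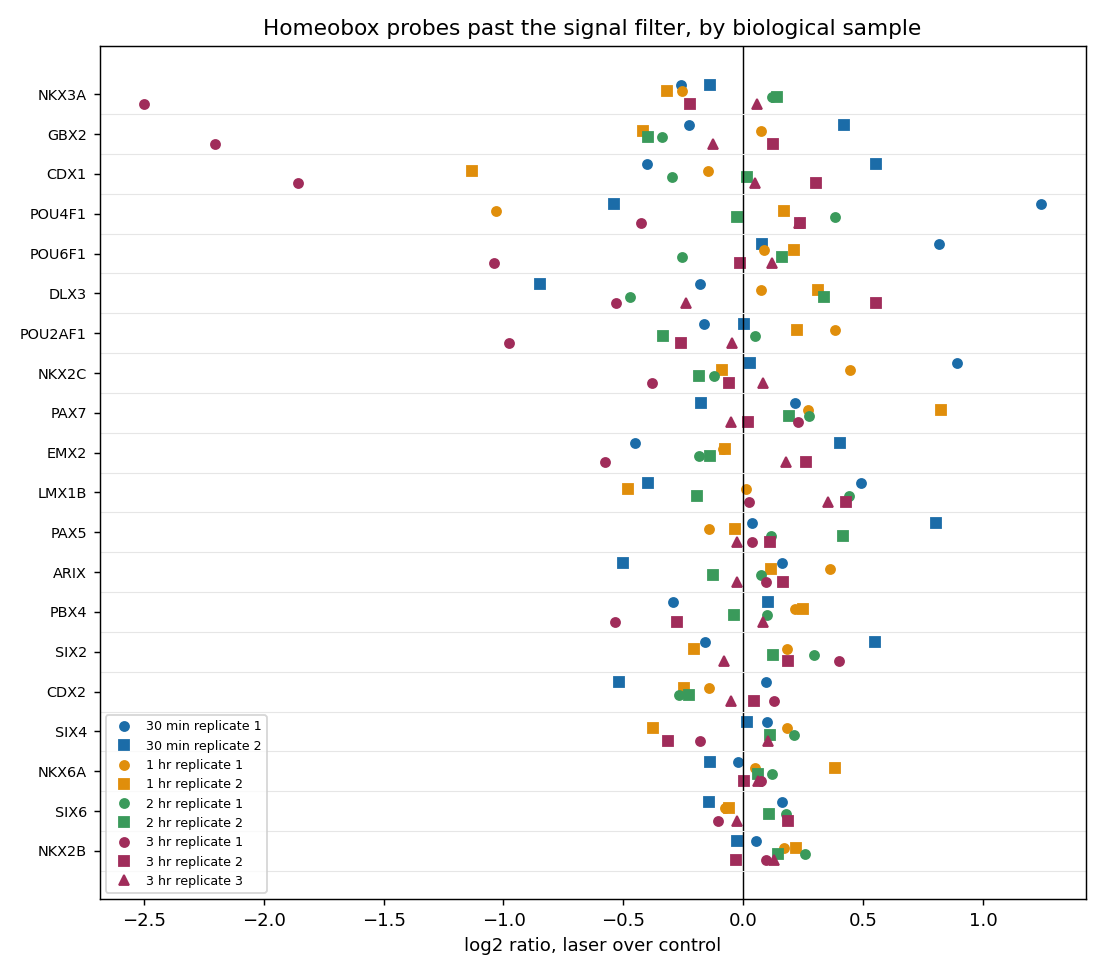
Log2 ratio of laser over control (x axis) for 20 of the homeobox probes past the signal filter, one point per biological sample, coloured by time point and shaped by replicate number. Rows run from the widest range at the top (NKX3A, -2.50 to 0.14) to the narrowest at the bottom (NKX2B, -0.03 to 0.26), and the points farthest left are those of 3 hr replicate 1.

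SIX-type proteins are DNA-binding partners of the EYA and DACH proteins. SIX4, a factor of muscle and sensory ganglion precursors, had ratios of 0.10 and 0.01 at 30 min, 0.18 and -0.38 at 1 hr, 0.21 and 0.11 at 2 hr, and -0.18, -0.31 and 0.10 at 3 hr. Samples of 1 hr and of 3 hr fell on both sides of 0, and the mean over time points was -0.002 ± 0.085 (SE, 9 samples; limma adjusted p = 0.997; 95% interval -0.20 to 0.20). The lowest values came from samples whose orientations disagreed. In 1 hr replicate 2 SIX4 read 0.42 with laser RNA in Cy3 and -1.17 with laser RNA in Cy5, and in 3 hr replicate 2 it read 0.65 and -1.28. SIX6, a gene of the eye and pituitary, ranged from -0.14 to 0.19 over the 9 samples and was among the 4 members with the smallest SD, and SIX2, a gene of kidney progenitors ranged from -0.20 to 0.55.

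PAX7, a factor of neural crest and muscle stem cells, had the smallest p of the group. Its ratios were 0.22 and -0.18 at 30 min, 0.27 and 0.82 at 1 hr, 0.27 and 0.19 at 2 hr, and 0.23, 0.02 and -0.05 at 3 hr, so 7 of 9 samples were above 0. The 1 hr mean was 0.55 ± 0.18 (limma unadjusted p = 0.0182, adjusted p = 0.991), and the mean over time points 0.22 ± 0.09 (unadjusted p = 0.0396, adjusted p = 0.859). The 1 hr value did not hold across the dye orientations. Replicate 1 read -0.11 with laser RNA in Cy3 and 0.65 with laser RNA in Cy5, replicate 2 read -0.53 and 2.18, and 3 of the 6 arrays were above 0. With the Cy5 arrays of the 4 unsettled samples left unturned the 1 hr mean was -0.54, and with their Cy3 arrays turned as well it was -0.28.

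PAX5, a factor of the midbrain boundary and of B cells, was the other PAX gene past the filter. It had 0.04 and 0.80 at 30 min, -0.14 and -0.03 at 1 hr, 0.12 and 0.42 at 2 hr, and 0.04, 0.11 and -0.02 at 3 hr. Its means of 0.42 ± 0.19 at 30 min and 0.27 ± 0.19 at 2 hr (adjusted p = 0.99 and 0.995) each leaned on 1 of the 2 samples. The 2 hr mean was -0.16 with the Cy5 arrays of the unsettled samples unturned and -0.15 with both orientations changed. Among the PAX genes below the filter, PAX2 ranged from -0.09 to 0.54, PAX3 from -0.42 to 0.35 and PAX8 from -0.16 to 0.81 over the samples, and the highest of PAX8 was that of 30 min replicate 2.

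The otocyst patterning genes past the filter were DLX3, GBX2, EMX2 and LMX1B. DLX3, a Distal-less factor of placodal and epidermal ectoderm, had ratios of -0.18 and -0.85 at 30 min, 0.07 and 0.31 at 1 hr, -0.47 and 0.34 at 2 hr, and -0.53, 0.55 and -0.24 at 3 hr. Both 30 min samples were below 0 and the mean of -0.51 ± 0.31 had a 95% interval of -1.24 to 0.21 (adjusted p = 0.99). The lower sample again differed by orientation, with -1.88 with laser RNA in Cy3 and 0.18 with laser RNA in Cy5. Over the 4 time points DLX3 averaged -0.11 ± 0.15 (adjusted p = 0.882).

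GBX2, which is needed for the dorsal otocyst and positions the midbrain-hindbrain boundary, had -0.23 and 0.42 at 30 min, 0.08 and -0.42 at 1 hr, -0.34 and -0.40 at 2 hr, and -2.20, 0.13 and -0.12 at 3 hr. The -2.20 of 3 hr replicate 1 stood apart from the other 8 samples and was nearly the same in both orientations, at -2.20 with laser RNA in Cy3 and -2.21 with laser RNA in Cy5. The 3 hr mean was -0.73 ± 0.42 (adjusted p = 0.656), and 0.00 ± 0.19 without that sample. At 2 hr both samples were below 0, with a mean of -0.37 ± 0.51 (adjusted p = 0.995). This SE is shared over the time points and also holds the -2.20 of 3 hr replicate 1.

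EMX2, a factor that sets hair cell orientation in the maculae of mouse and zebrafish, had -0.45 and 0.40 at 30 min, -0.08 and -0.08 at 1 hr, -0.18 and -0.14 at 2 hr, and -0.57, 0.26 and 0.18 at 3 hr. The 1 hr and 2 hr pairs were close together, and the 30 min and 3 hr samples fell on both sides of 0. The 1 hr value of each sample, however, joined orientations of opposite sign. Replicate 1 read -0.35 with laser RNA in Cy3 and 0.18 with laser RNA in Cy5. Replicate 2, an unsettled sample, read 0.26 and -0.42. The mean over time points was -0.08 ± 0.12 (adjusted p = 0.902). LMX1B, a LIM-homeobox factor of the LMX1 type, had 0.49 and -0.40 at 30 min, 0.01 and -0.48 at 1 hr, 0.44 and -0.19 at 2 hr, and 0.02, 0.43 and 0.35 at 3 hr. It was above 0 in all 3 samples at 3 hr, with a mean of 0.27 ± 0.21 (adjusted p = 0.656) and 9 of 14 arrays on that side. The 3 hr mean of LMX1B was -0.25 with both orientations of the unsettled samples changed.

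POU4F1, the ganglion neuron factor, had 1.24 and -0.54 at 30 min, -1.03 and 0.17 at 1 hr, 0.38 and -0.02 at 2 hr, and -0.43, 0.24 and 0.23 at 3 hr. The replicates of 30 min and of 1 hr had opposite signs with the widest gaps of any member at those times (1.78 at 30 min), and both orientations of the outer samples had the sign of their mean. At 30 min replicate 1 these were 0.47 with laser RNA in Cy3 and 2.01 with laser RNA in Cy5, and at 1 hr replicate 1 they were -1.24 and -0.83. The 0.17 of 1 hr replicate 2, an unsettled sample, averaged -1.07 with laser RNA in Cy3 and 1.41 with laser RNA in Cy5. The sign of POU4F1 in that replicate is therefore not settled. With the Cy5 arrays of the unsettled samples unturned, the 1 hr mean of POU4F1 had an unadjusted p under 0.05 in limma. The same held with the scan date as a random block over arrays. At an adjusted p under 0.05, 0 of 371 probes were called at 1 hr in either setting. The share of probes with an unadjusted p under 0.05 was not counted in these settings. The mean over time points was 0.03 ± 0.21 (adjusted p = 0.954).

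POU6F1, a POU factor of the nervous system, had 0.82 and 0.08 at 30 min, 0.09 and 0.21 at 1 hr, -0.26 and 0.16 at 2 hr, and -1.04, -0.01 and 0.12 at 3 hr. All 5 arrays at 30 min were above 0, with a mean of 0.45 ± 0.31 (adjusted p = 0.99). Without 3 hr replicate 1 the same 30 min mean had an unadjusted p under 0.05 in limma, as did 5.12% of probes. POU2AF1, a B cell coactivator, had -0.16 and 0.00 at 30 min, 0.38 and 0.22 at 1 hr, 0.05 and -0.33 at 2 hr, and -0.98, -0.26 and -0.05 at 3 hr. All 6 arrays at 1 hr were above 0 (mean 0.30 ± 0.23, adjusted p = 0.991) and 11 of 14 at 3 hr were below it (mean -0.43 ± 0.19, adjusted p = 0.656). Its F between time points, 2.03, was the highest of the 22 members (adjusted p = 0.998), and its 3 hr mean without replicate 1 was -0.15 ± 0.15.

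**Figure D3:**
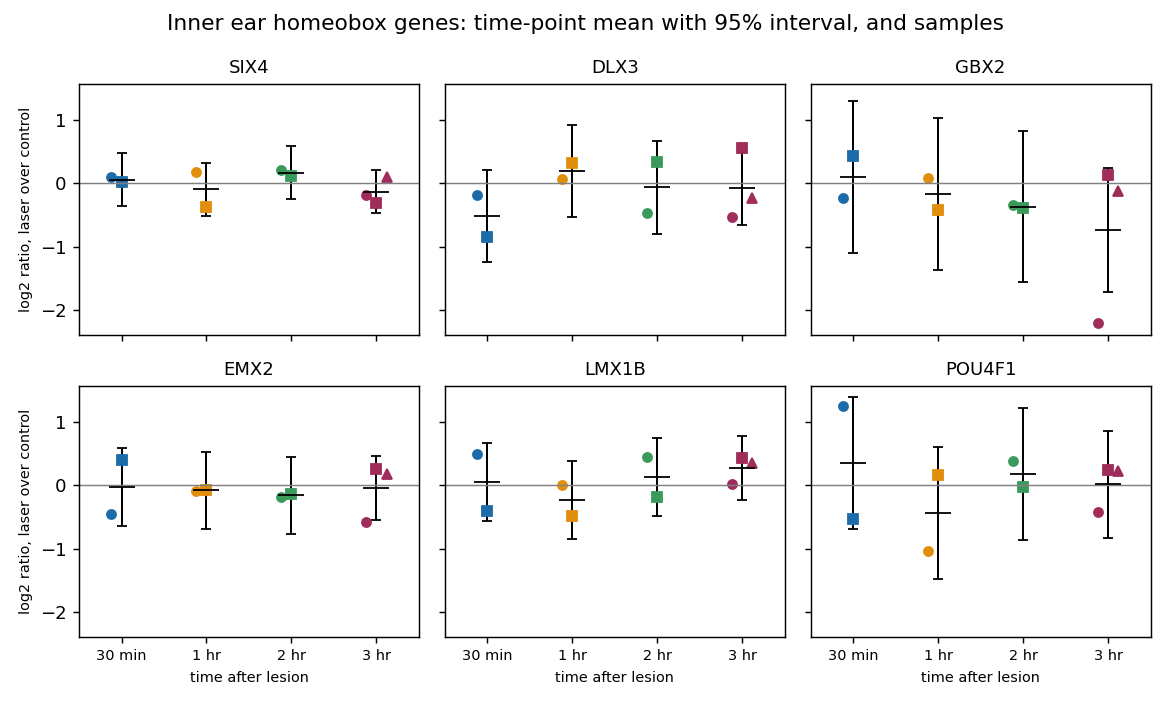
Log2 ratio of laser over control (y axis) against time after the lesion for 6 of the inner ear homeobox genes past the signal filter. Coloured points are biological samples (circle, square and triangle for replicates 1, 2 and 3), dashes are time-point means and bars their 95% intervals from limma, and every bar crosses 0.

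Of the TALE genes, whose products pair with HOX and other homeodomain proteins on DNA, PBX4 passed the filter, while PBX2, PBX3 and the 3 MEIS genes did not. PBX4 had -0.29 and 0.10 at 30 min, 0.22 and 0.25 at 1 hr, 0.10 and -0.04 at 2 hr, and -0.54, -0.28 and 0.08 at 3 hr. The 1 hr pair was close together and above 0, with a mean of 0.23 ± 0.18 (adjusted p = 0.991), and the other times had samples on both sides of 0. At 1 hr replicate 1 read 0.13 with laser RNA in Cy3 and 0.30 with laser RNA in Cy5. Replicate 2, an unsettled sample, read 0.54 and -0.04.

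The NKX genes, NK-type factors named here as the array design names them, held both the narrowest and the widest ranges. NKX2B, an older name for the neural tube factor NKX2-2, lay between -0.03 and 0.26 in all samples and averaged 0.12 ± 0.06 over the time points (adjusted p = 0.859). NKX6A, an NK6-type factor, had -0.02 and -0.14 at 30 min, 0.05 and 0.38 at 1 hr, 0.12 and 0.06 at 2 hr, and 0.07, 0.00 and 0.06 at 3 hr, with a 3 hr mean of 0.05 ± 0.11 (adjusted p = 0.877). NKX2C had 0.89 and 0.03 at 30 min, 0.44 and -0.09 at 1 hr, -0.12 and -0.18 at 2 hr, and -0.38, -0.06 and 0.08 at 3 hr. Its 30 min mean was 0.46 ± 0.24 (adjusted p = 0.99), and its replicates differed by more than their mean.

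NKX3A, an NK3-type factor, had -0.26 and -0.14 at 30 min, -0.26 and -0.32 at 1 hr, 0.12 and 0.14 at 2 hr, and -2.50, -0.22 and 0.06 at 3 hr. The -2.50 of 3 hr replicate 1 was the lowest ratio of any member in any sample, and it was seen in both orientations, at -2.14 with laser RNA in Cy3 and -2.86 with laser RNA in Cy5. The mean of NKX3A over the time points was -0.31 ± 0.25 (adjusted p = 0.859) and its 3 hr mean -0.89 ± 0.43 (adjusted p = 0.656), or -0.08 ± 0.13 without that sample. At 1 hr both samples and both orientations were below 0, with a mean of -0.29 ± 0.53 (adjusted p = 0.991). This SE is shared over the time points and also holds the -2.50 of 3 hr replicate 1.

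The caudal-type genes CDX1 and CDX2, factors of the posterior body axis and the gut, also passed. CDX1 had -0.40 and 0.55 at 30 min, -0.15 and -1.13 at 1 hr, -0.30 and 0.02 at 2 hr, and -1.86, 0.30 and 0.05 at 3 hr. Its 1 hr mean of -0.64 ± 0.52 (adjusted p = 0.991) came with 5 of 6 arrays below 0, but replicate 2, an unsettled sample, read -2.08 with laser RNA in Cy3 and -0.19 with laser RNA in Cy5, and the mean was 0.49 with both of its orientations changed. CDX2 had 0.09 and -0.52 at 30 min, -0.14 and -0.25 at 1 hr, -0.27 and -0.23 at 2 hr, and 0.13, 0.04 and -0.05 at 3 hr. The 2 hr pair of CDX2 was close together, below 0 on 6 of 8 arrays, with a mean of -0.25 ± 0.17 (adjusted p = 0.995). ARIX, an older name for the autonomic neuron factor PHOX2A, ranged from -0.50 to 0.36, and its 6 arrays at 1 hr were all above 0 (mean 0.24 ± 0.18, adjusted p = 0.991).

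One sample set the outer values of many members. For 9 of the 22, the ratio farthest from 0 was that of 3 hr replicate 1, beside 56.9% of the 371 probes, and the members there had an SD of 0.84. Its lowest members were NKX3A, GBX2, CDX1, POU6F1 and POU2AF1. Most arrays of 3 hr replicate 1 were of the earlier print. In a fit without that print 0 of the 371 probes were called at 3 hr. Their 3 hr median was -0.02 and 45.8% were above 0, beside -0.06 and 42.6% in the main fit. The part of the print in the values of single members was not tested. The supporting cell markers past the filter had -2.32 (SOX2), -1.27 (ID1), 0.17 (HEY1) and 0.38 (HEY2) in the same sample. The neuron markers past the filter had -0.43 (POU4F1), 0.10 (ARIX), 0.42 (ISL1) and 0.61 (NEUROG1), so both lists held values on both sides of 0. Their part in the homeobox values was not tested. Without 3 hr replicate 1 the limma fit called 0 members at any time point, and POU6F1 at 30 min (5.12% of probes), CDX1 and PAX7 at 1 hr (5.66%) and PAX7 in the mean over time points (6.47%) had an unadjusted p under 0.05.

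The part of a ratio that changed sign with the dye orientation was often as large as the ratio itself. It is called the dye part here, but it comes from different arrays and so also holds differences between arrays. In 0 of 22 members did it have 1 sign in all 9 samples. On average it exceeded the laser over control part in 12 of 22 members and in 57.4% of the probes. In 3 hr replicate 1, 19 of 22 members had the same sign in both orientations, beside 80.1% of the 371 probes. The count was 16 (51.8% of probes) for 30 min replicate 1. It was lowest, at 6, for both 2 hr replicate 2 (38.3%) and 3 hr replicate 3 (15.4%). With the Cy5 arrays of the 4 unsettled samples left unturned, members past 1.2-fold numbered 3 above and 4 below at 1 hr, 0 and 2 at 2 hr, and 0 and 4 at 3 hr. With both orientations changed they numbered 3 and 2, 1 and 1, and 0 and 7. The share of all probes past 1.2-fold was not counted in these settings. Of the 371 probes, 53.6%, 54.2% and 45.6% were above 0 at these times in the first setting. In the second setting the shares were 63.6%, 60.4% and 28.8%.

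**Figure D4:**
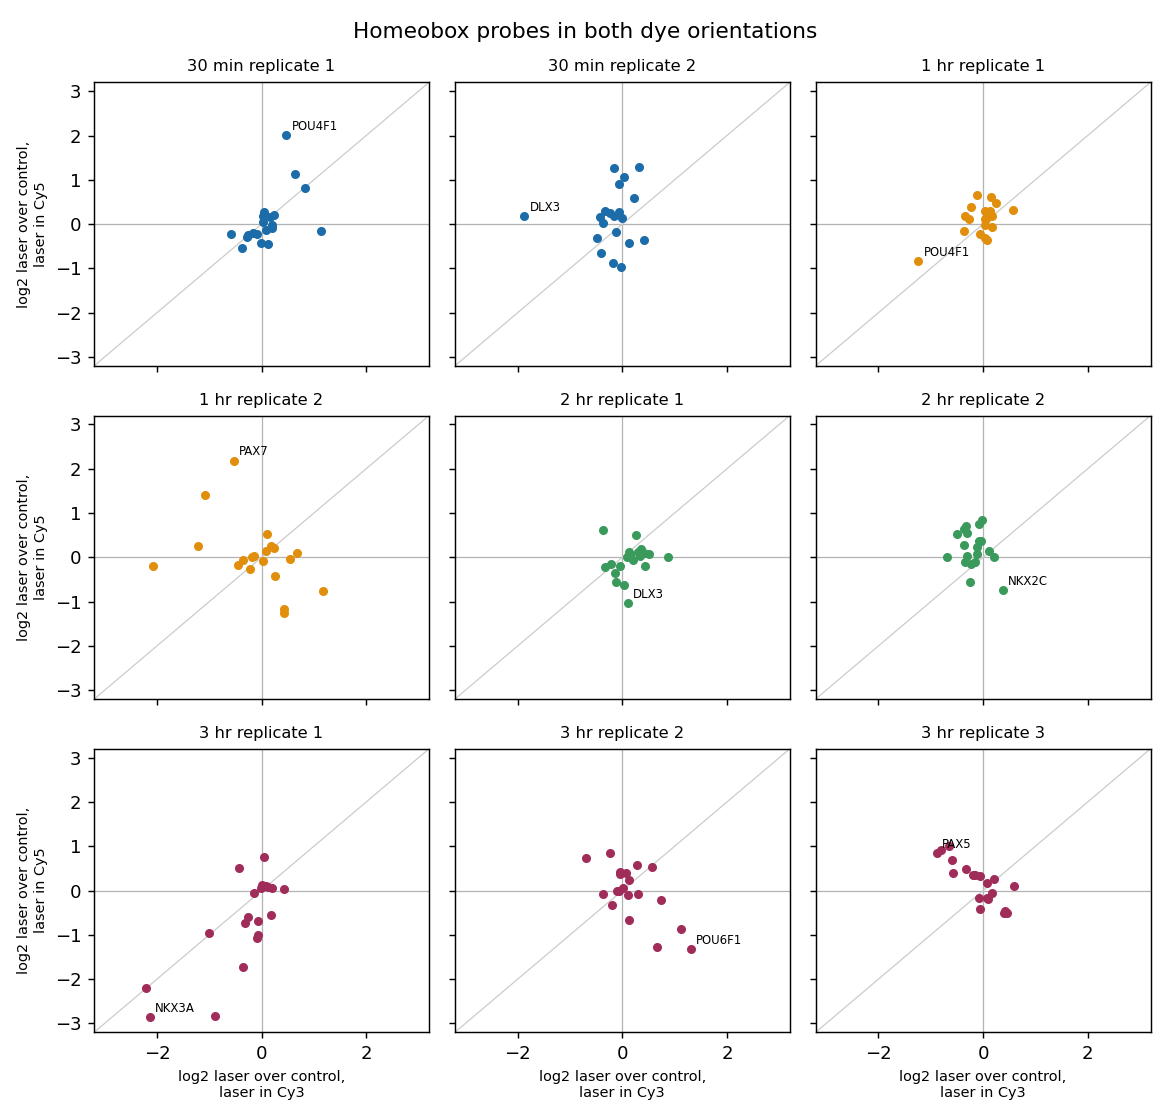
Log2 ratio of laser over control in arrays with laser RNA in Cy5 (y axis) against that in arrays with laser RNA in Cy3 (x axis), for 20 of the homeobox probes past the signal filter, a panel per biological sample. The grey diagonal marks equal values in both orientations. Points follow it in 3 hr replicate 1 and run across it in 3 hr replicates 2 and 3, and the member farthest from the origin is named.

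Between time points the members could not be told apart. In limma 0 of 22 passed an adjusted p of 0.05 or an unadjusted p of 0.05 when 1 hr was set against 30 min (0.809% of probes at the unadjusted level), 2 hr against 1 hr (0.539%), 3 hr against 2 hr (1.62%) or 3 hr against 30 min (0.539%). After POU2AF1 the next highest F values were 1.84 for PAX7 and 1.56 for NKX2C.

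The 41 members below the filter were fitted together with all 1516 probes. None was called in limma at any time point (smallest adjusted p = 0.887 at 2 hr) or in the mean over them (smallest 0.777), and at an unadjusted p under 0.05 there were 2 at 30 min (EMX1 and POU1F1, beside 1.85% of the 1516 probes), 1 at 1 hr (DLX2, 1.45%), 1 at 2 hr (GBX1, 5.34%), 0 at 3 hr (1.91%) and 1 in the mean over time points (SIX3, 4.75%). Their time-point means lay between -0.28 and 0.47. Among the dim inner ear genes, POU4F3 ranged from -0.12 to 0.31 over the 9 samples, POU3F4 from -0.14 to 0.53, DLX5 from -0.32 to 0.52, MEIS1 from -0.03 to 0.54 and OTX2 from -0.21 to 0.85.

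The genes that work with these families were counted in the same way. Of the partners of PAX and SIX-type proteins, 9 were on the array and 2 passed the filter, the NK factors TITF1 and BAPX1, and the EYA coactivators did not. TITF1 and BAPX1 stand in a PAX pathway list that the study drew up with these samples among others. BAPX1 had mean ratios of -0.53 (30 min), 0.48 (1 hr), 0.33 (2 hr) and -0.08 (3 hr), and TITF1 of -0.29, -0.10, -0.18 and -0.05, with 0 called in limma. The 3 TALE partners on the array, PKNOX1, PKNOX2 and TGIF, were all below the filter. Of 28 other homeobox identifiers 7 passed and 0 were called.

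Markers of the cell types that the cultures could hold passed the filter to different extents, beside 24.5% of all probes. Of hair cell markers 1 of 5 passed the filter (SOX2, which supporting cells share) and POU4F3, ATOH1 and GFI1 did not. Of supporting cell markers 4 of 8 passed (SOX2, HEY1, HEY2 and ID1), of mesenchyme markers 1 of 6, of neuron markers 4 of 6, of blood cell markers 1 of 6 and of pigment cell and glia markers 0 of 3. No marker had a signal of 0. Summed over its list, the signal ran from 610 to 12001 in laser channels and from 363 to 14742 in control channels for hair cell markers. It ran from 2232 to 59307 in laser channels and from 863 to 22966 in control channels for supporting cell markers, and from 1070 to 135705 and from 927 to 29987 for neuron markers. In the same order it ran from 971 to 68496 and from 1042 to 18280 for mesenchyme markers. Blood cell markers had 838 to 79052 and 785 to 14117, and pigment cell and glia markers 450 to 17636 and 298 to 5658. These signals are not normalized, and each end of a range is that of a single array. The arrays differed in brightness, so the ranges do not compare laser with control.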

How the data were processed

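Amplified RNA of lesioned and time-matched control utricle cultures was compared on 33 arrays. The deposited channel files give the linear intensity of each spot and of its surrounding background, measured by ImaGene 4.1 per the file headers and not subtracted. The authors deposited in the series table log2 ratios of laser over control. These equalled the raw ratios of the channel files to within 6.22e-15, with channels by file name and turned by the sample titles, and were neither normalized nor centred (column medians -2.05 to 2.47). They served as an alternative after the median of the probes other than controls was subtracted from each array's column. The authors' lowess normalization and their removal of poor hybridizations are not in these values, and all arrays were kept.

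Here, the normexp correction (offset 50, all spots) preceded loess normalization of the ratios within arrays, with weight 0 for control and blank spots. Control spots (18 identifiers) were left out of the tests. No spot carried a flag. A fixed signal of 1000 stood in place of the methods' dim-probe level, which came from control spots. Spots were averaged, then arrays of each dye orientation, then both orientations per biological sample. Time-point means of the 9 samples were estimated in limma (version 3.58.1, with statmod 1.5.0 in R 4.3.3) on 5 residual degrees of freedom, and p-values were adjusted by Benjamini-Hochberg over the 371 filtered probes. The number of samples limits the precision. The methods' t-test was run as a one-sample test per time point.

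The members and gene lists were chosen with earlier results of these data known. Named were, per time point, the 4 members with the largest absolute mean ratio among those with the same sign in every sample, the 3 with the largest absolute mean over time points, the 3 with the largest F, the inner ear genes and the detectable members. SIX2, SIX6, NKX2B, PBX4, ARIX and the dim members with a low p were added after their values were seen. Some genes that these rules name are not reported here, and they remain in the counts and fits. Alternatives changed the background correction, normalization, dim filter, detection rule, channel and direction of arrays, unit of the fit, replicate block and samples. The averaging over arrays and the limma fit were tested on simulated ratios whose dye effect was the same in every sample. Background correction, normalization and the dim filter were not part of that test. Figures were drawn with matplotlib 3.10.9.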

Additional observations from a re-analysis of the deposited data

How the results depend on the processing

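At each of the first 3 time points 0 members were called under 30 other limma settings and 2 forms of the methods' t-test, and 0 between them under 29 limma settings. With the 4 unsettled samples left out, when the lone samples left at 1 hr, 2 hr and 3 hr are assumed to vary like the 30 min pair, 3 members were called at 3 hr (CDX1, GBX2 and NKX3A; 27.8% of probes), 2 in the mean over time points (9.97%), 2 for 3 hr minus 2 hr (12.1%), 4 for 3 hr minus 30 min (17.8%) and 3 in the F test (16.2%), and the 3 hr value is then that of 3 hr replicate 1 alone. With the scan date as a random block over arrays, 1 was called at 3 hr (NKX3A, beside 3.5% of probes). With the channels taken by file name, GBX2 and POU6F1 had an unadjusted p under 0.05 in limma at 3 hr. POU6F1 also did so for 3 hr minus 30 min, and 0 of 371 probes were called in either comparison. Leaving out any 1 sample gave 0 calls. Fitting each time point alone in limma, with its own spread, also gave 0 called members. In that setting CDX1, PAX7 and POU4F1 had an unadjusted p under 0.05 at 1 hr, where 2 of 371 probes were called. GBX2 and PAX5 did so at 2 hr, where 12 of 371 probes were called. The methods' t-test over single arrays gave 3 members at 3 hr before adjustment (LMX1B and NKX3A among them; 9.43% of probes) and 0 after Benjamini-Hochberg adjustment. Of 23 named ratios, the settings turned the sign of 15. With the Cy5 arrays of the unsettled samples unturned, the values were -0.54 (PAX7, 1 hr), -0.16 (PAX5, 2 hr), -0.12 (PAX7, 2 hr) and, over time points, 0.019 (GBX2), 0.15 (SIX4), -0.020 (LMX1B) and -0.21 (POU4F1). With their Cy3 arrays turned as well, they were 0.49 (CDX1), -0.28 (PAX7) and 0.031 (NKX3A) at 1 hr, 0.029 (GBX2) and -0.15 (PAX5) at 2 hr, -0.25 (LMX1B) at 3 hr and, over time points, 0.10 (SIX4) and -0.086 (POU4F1). Without these samples SIX4 averaged 0.068 and POU4F1 -0.18. Background subtraction gave -0.21 (NKX6A, 3 hr) and, over time points, 0.093 (SIX4), 0.027 (DLX3) and -0.52 (LMX1B), and leaving out the earlier print gave -0.079 (NKX6A, 3 hr). The other turned values were means over time points. SIX4 and POU4F1 were 0.024 and -0.018 in a fit of the single arrays with a random block per sample, 0.039 and -0.027 with the scan date as the block, and 0.00080 and -0.012 with a plain mean over arrays. SIX4 and EMX2 were 0.11 and 0.068 with median centring. They were 0.017 and 0.0013 with the series table values centred per array, and SIX4 was 0.0047 with sample weights. Leaving out 1 sample moved the mean over time points between -0.072 and 0.068 for SIX4, -0.19 and 0.029 for EMX2, -0.061 and 0.16 for LMX1B and -0.19 and 0.25 for POU4F1. The cause of these turns was not tested.

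The replicate numbers were not used to pair samples in the main fit. Deviations from the time-point means correlated between -0.37 and 0.25 in 12 same-numbered pairs, 4 of them over 0.1, and between -0.29 and 0.37 in 18 others. At 30 min, 1 hr and 2 hr there were 2 samples each, whose deviations from their mean are equal and opposite. These correlations therefore cannot show whether samples of the same number were paired. With the replicate number as a block, 0 members were called, and the values were 0.19 for NKX3A at 1 hr and, over time points, 0.044 (NKX3A), 0.085 (SIX4) and 0.0063 (EMX2).

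The filter set how many members could be tested, which was 32 at a signal of 800, 11 at 1200 and 2 where both channels had to exceed 1000. Members past 1.2-fold at 3 hr numbered 12 above and 4 below with median centring, where the median of all probes was 0.14. They numbered 10 above and 5 below with the series table values centred per array. Without the filter 11 of all 63 members were above 1.2-fold and 1 was below at 30 min, where 51.3% of the 1516 probes were above 0. The share of probes past 1.2-fold was not counted in these settings. By the local background rule 6 members were detectable at 30 min (9.37% of all probes). At 1 hr (3.1% of probes), 2 hr (3.56%) and 3 hr (2.97%) it was 1 each.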
